A study of Chromochloris zofingiensis with 38 samples.

Results

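The genes described here are 53 of the 12459 genes of *Chromochloris zofingiensis*, a unicellular green alga, that were higher after 1 h with the TOR inhibitor AZD and lower after 24 h with it, each time set against samples labelled S. They were chosen by the counts themselves. CPM, counts scaled to a common library total, were averaged per group, the ratio of AZD over S was taken as log2 of (CPM + 1), and its median over the 11623 genes with a mean of at least 1 CPM was subtracted, which gives a centred log2 ratio called L here. A gene was kept when L was at least 1 at 1 h and at most -1 at 24 h, so the early rise and the late fall of AZD against S are the choice itself and not a finding. The limit at 1 h was met by 914 genes and that at 24 h by 2403, and the 53 genes were 5.8% and 2.21% of these. Among genes with a mean of at least 1 CPM, 7.79% met the limit at 1 h and 20.6% that at 24 h.

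The TOR kinase couples growth to nutrient supply in eukaryotes, algae included. When it is active it promotes ribosome production and protein synthesis, and when it is inhibited cells slow growth, recycle their contents by autophagy and redirect carbon and nitrogen into storage. *C. zofingiensis* is known for its response to glucose, on which it can grow without light while it dismantles part of its photosynthetic apparatus and stores lipid and ketocarotenoids. The count table lists genes by ID alone, and 0 IDs could be paired with a name, a product or a sequence in the sources used here, so no function is given to any of the genes below.

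RNA of wild-type cultures was sequenced in 38 poly(A) libraries at 1 h and 24 h, 19 at each time. The groups were AZD (3 libraries at 1 h, 4 at 24 h), GA (4 and 3), Glu for glucose (4 and 4), S (4 and 4) and None for no addition (4 and 4), and no dose is given. What S and GA stand for is not written out, so they go by these names. Samples of 1 h and of 24 h carry different title prefixes, and the time cannot be told apart from whatever that prefix marks, so levels at the 2 times were not tested against each other. Nothing states that replicates were separate cultures, so the spread behind each p-value is that of the deposited samples and may be technical. In bulk RNA a change in a gene's level per cell and a change in the make-up of the culture cannot be told apart.

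Library totals ran from 12414643 to 106150532 estimated counts. All 53 genes passed the filter on low counts, as did 12142 genes in all. Levels below are CPM on library totals scaled by trimmed means (TMM), 1 value per library. The 53 genes averaged 1.41 to 781 CPM over all libraries with a median of 20.5 CPM, against a median of 29.2 CPM over the genes tested, and 15 of the 53 lay under 10 CPM. Their IDs fell under 18 of the 20 ID prefixes of the table, with 8 under Cz02 (15.1% of the 53, against 7.53% of the table) and 5 each under Cz05 and Cz09.

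Before the results, 2 libraries stood apart. S replicate 1 lay 0.61 from the mean of the other S libraries at 1 h and Glu replicate 4 lay 0.55 from the other Glu libraries at 1 h (root mean square difference in log2(CPM + 1) over all genes tested), and each of the other libraries lay at most 0.44 from its group. S replicate 1 entered the choice of genes. It was the lowest S library at 1 h in 27 of the 53 genes, and in 15 of the 53 it held less than 0.5 times the mean of the other S libraries. Chosen without it, the same rule again gave 53 genes, of which 42 were among the 53 described here and 11 were not. The counts below are therefore also given for the 53 genes chosen without S replicate 1, with Glu replicate 4 left out of the comparisons that hold Glu at 1 h, a setting added after the data were seen.

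In the contrast that chose them, the limits of the rule set the smallest rise and the smallest fall. L of AZD against S had a median of 1.25 at 1 h, with a range of 1.0 to 2.42, and a median of -1.55 at 24 h, with a range of -4.08 to -1.01. At 1 h the AZD libraries all lay above the S libraries for 51 of the 53 genes (27.6% of all genes tested), and at 24 h they all lay below them for 53 (35.8%). Together the 53 genes took 0.900% ± 0.0605 of the counts in AZD at 1 h (n = 3) and 0.403% ± 0.0560 in S (n = 4), and 0.109% ± 0.00536 in AZD at 24 h and 0.423% ± 0.0640 in S (n = 4 each). These values describe the choice and carry no test.

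Cz11g24160 was the most abundant of the 53 over all libraries. It stood at 1510, 1450 and 1480 CPM in AZD at 1 h, against 527, 718, 672 and 752 CPM in S. By 24 h it stood at 165, 162, 192 and 176 CPM in AZD, against 508, 438, 457 and 434 CPM in S. The replicates of each group lay close together, and AZD and S did not overlap at either time. Cz19g05230, the next most abundant, held 2070, 2440 and 1330 CPM in AZD at 1 h, against 378, 792, 779 and 807 CPM in S, where the low value is replicate 1. At 24 h it held 146, 222, 170 and 152 CPM in AZD, against 834, 787, 599 and 623 CPM in S.

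The highest L at 1 h among genes of at least 10 CPM belonged to Cz11g12230 (2.42), with 811, 962 and 1010 CPM in AZD, against 30.4, 244, 200 and 198 CPM in S. The lowest of these S values is again replicate 1, and without that library its L was 2.0. Cz07g28110 came next with L of 2.20 and had 43.3, 52.2 and 36.9 CPM in AZD, against 8.27, 7.45, 9.76 and 7.54 CPM in S, where no S library stood apart. The deepest late fall was that of Cz05g15290 (L of -4.08), with 6.26, 8.19, 5.82 and 5.12 CPM in AZD at 24 h, against 117, 129, 130 and 129 CPM in S. Cz08g20170 followed with L of -3.52. It had 0.0524, 0.106, 0.143 and 0.0602 CPM in AZD at 24 h, which rest on 10 counts in all, against 6.2, 9.17, 12.8 and 13.9 CPM in S, and its fold from summed counts is 128 lower (95% interval 69.2 to 267, exact, counting error only).

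The choice was close for many of the genes. Of the 53, 24 lay within 0.1 of a limit. At the limit of 1 h the gene just inside was Cz06g05220 (L of 1.0042) and the gene just outside Cz04g40120 (0.9995), and at the limit of 24 h they were Cz10g22150 (-1.0132) and Cz12g03180 (-0.9832). Against None in place of S, which shares the AZD libraries with the choice, L of the 53 genes had a median of 1.15 at 1 h, with 35 genes at 1 or more (7.67% of genes with a mean of at least 1 CPM), and a median of -1.64 at 24 h, with 43 genes at -1 or less (21.9%). S against None shares the S libraries with the choice. Its median L was -0.14 at 1 h (-0.06 without S replicate 1) and -0.05 at 24 h. L ranged from -0.73 to 0.48 at 1 h, below 0 in 37 of the 53 genes, and from -0.67 to 0.97 at 24 h, below 0 in 29. At neither time did L reach 1 in either direction in any of the 53 genes. Few of all genes did (0.465% upward and 0.043% downward at 1 h, 0.155% and 0.103% at 24 h), so this does not set the 53 genes apart.

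**Figure D1:**
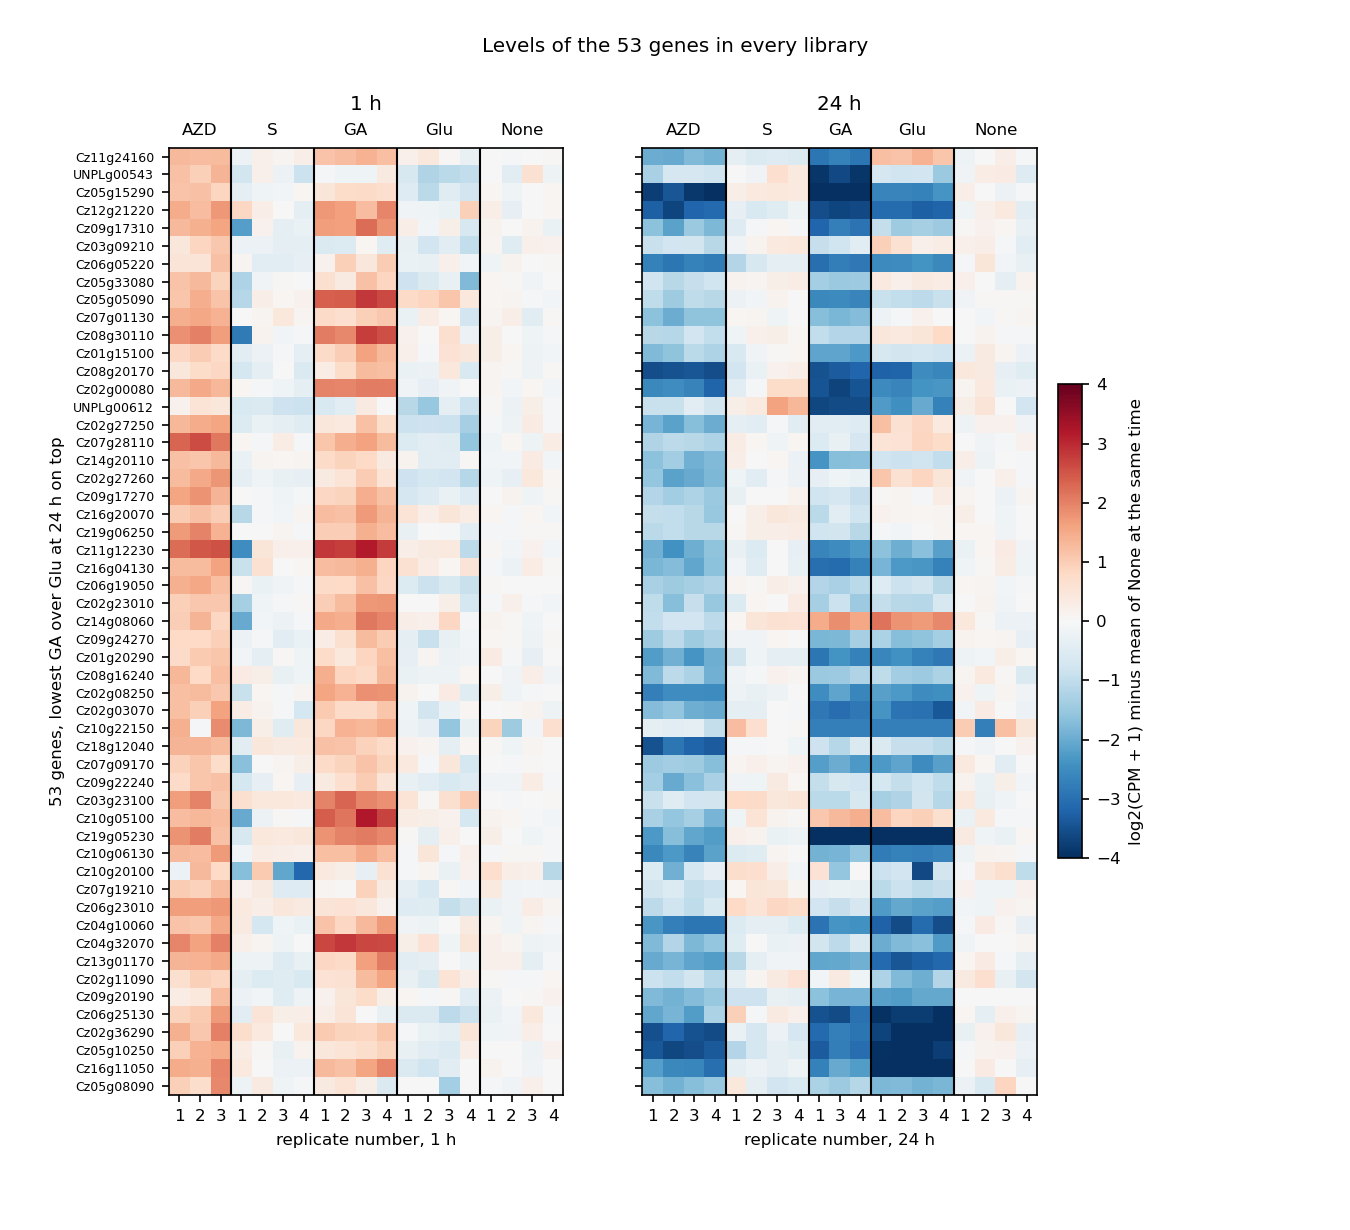
Each of the 53 genes is a line of cells and each library a column, grouped by treatment at 1 h (left) and 24 h (right); colour gives log2(CPM + 1) minus the mean of the None libraries of the same time, cut off at -4 and 4. At 1 h the AZD columns are raised, the GA columns are raised in most genes but not in all, and S, Glu and None lie nearer 0. S replicate 1 is low in some genes at 1 h, and Glu lies below None in some. At 24 h AZD, GA and Glu are lowered in most genes, and the genes on top, such as Cz11g24160, are lowest in GA relative to Glu.

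GA against Glu sets 2 groups beside each other that took no part in the choice, and it asks whether the early rise and late fall were also seen in them. At 1 h a rise over Glu was. GA was higher than Glu in 49 of the 53 genes (92.5%), 41 of them at least 2-fold, and lower in 0, where 31.6% of all genes tested were called higher (11.7% at least 2-fold) and 26.7% lower (edgeR's quasi-likelihood test, Benjamini-Hochberg adjusted p under 0.05). For the count of 0, no gene of the 53 was lower at an unadjusted p under 0.05 either, and DESeq2 called 0 lower and 50 higher. The log2 fold change of GA over Glu was above 0 in all 53 genes, with a median of 1.37 (quartiles 1.04 and 1.73), against a median of 0.10 over all genes tested (quartiles -0.49 and 0.60). With library totals alone as the scaling, the median over all genes moved to -0.40 and that of the 53 genes to 0.86, and the 53 genes stood 1.26 above all genes, against 1.27 with TMM. Under that scaling 35 of the 53 genes were called higher, where 1508 of the 12142 genes tested were. For the genes chosen without S replicate 1 and fitted without Glu replicate 4, 49 of 53 were higher and 0 lower. A rise over Glu need not be a rise over None. Against None, GA at 1 h had a median L of 0.91 over the 53 genes, with a range of -0.33 to 2.68, and L was below 0 in 4. The lowest was that of UNPLg00612, called higher in GA than in Glu, which averaged 353 CPM in GA and 387 CPM in None.

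The largest early rise in GA over Glu was in Cz11g12230, which also had the highest L at 1 h. It held 1230, 1180, 1570 and 1210 CPM in GA, against 207, 221, 225 and 82.9 CPM in Glu. This is a 7.04-fold difference (log2 2.82 ± 0.34 SE, adjusted p = 1.48e-08, edgeR), and every GA library lay above every Glu library. Cz10g05100 followed with 64.0, 53.4, 112 and 79.1 CPM in GA, against 13.9, 13.4, 12.7 and 6.58 CPM in Glu (log2 2.74 ± 0.34 SE, adjusted p = 1.73e-08, edgeR). In both genes Glu replicate 4 was the lowest Glu library. The abundant Cz19g05230 held 2090, 2380, 2520 and 2240 CPM in GA, against 610, 455, 680 and 599 CPM in Glu, a 3.93-fold difference (log2 1.98 ± 0.21 SE, adjusted p = 6.89e-10, edgeR).

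The 4 genes not called at 1 h were Cz03g09210, Cz05g08090, Cz09g20190 and Cz10g20100, named after their values were seen, with log2 fold changes of 0.59, 0.56, 0.76 and 0.29. Cz10g20100 held 10.6, 9.38, 6.1 and 12.4 CPM in GA, against 7.49, 8.61, 6.3 and 8.95 CPM in Glu, and the groups overlapped. The other 3 genes did not exceed 4.59 CPM in any GA or Glu library at 1 h.

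**Figure D2:**
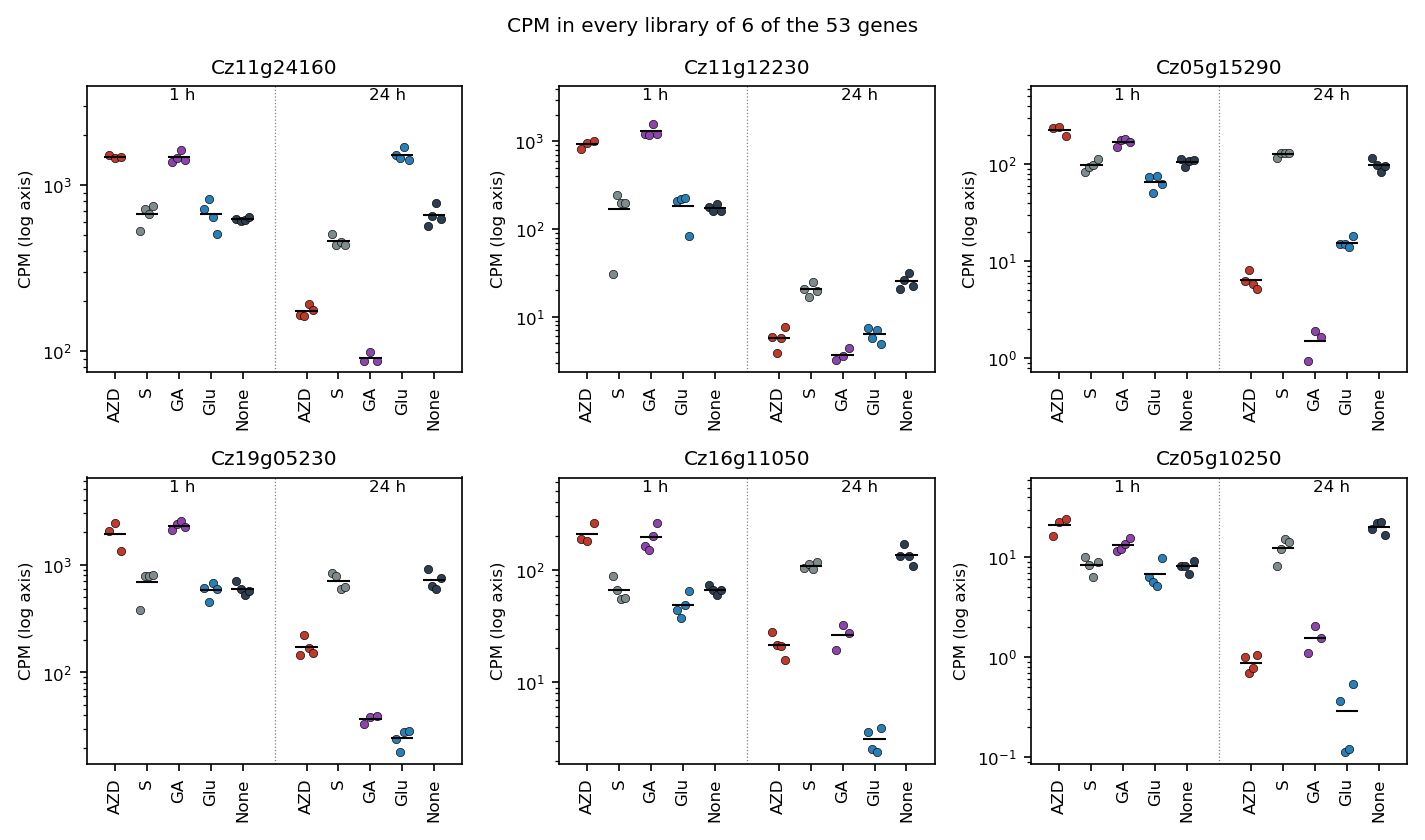
CPM (log axis) of 6 of the 53 genes in every library at 1 h and 24 h; points are libraries and horizontal lines group means. In each panel AZD and GA stand above S, Glu and None at 1 h; at 24 h AZD and GA stand below S and None, and Glu lies above None in Cz11g24160 and below it in the other 5 genes.

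At 24 h the 53 genes divided in GA against Glu. GA was lower in 24 of them (45.3%), 19 at least 2-fold, higher in 14 (26.4%), 13 at least 2-fold, and not called in 15. The 15 include Cz10g22150, listed at 0 in every GA and Glu library at 24 h and so not testable there. Of all genes tested 35.6% were called lower (22.8% at least 2-fold) and 40.8% higher (26.6%). The median log2 fold change of the 53 genes was -0.27, with quartiles of -1.37 and 1.10, against a median of 0.11 over all genes (quartiles -0.92 and 1.10). For the genes chosen without S replicate 1, 21 of 53 were lower and 18 higher. The share of the 53 genes called lower was above that of all genes, and the share called higher was below it. For the genes chosen without S replicate 1 both gaps were smaller.

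Cz11g24160 had the deepest late fall in GA over Glu of the 53. It held 86.6, 99.1 and 87.5 CPM in GA, against 1510, 1450, 1700 and 1410 CPM in Glu. The difference was 16.7-fold (log2 -4.06 ± 0.16 SE, adjusted p = 1.23e-20, edgeR), and the groups did not overlap. UNPLg00543 held 1.66, 2.20 and 1.69 CPM in GA, against 23.6, 21.9, 22.4 and 13.1 CPM in Glu (log2 -3.46 ± 0.32 SE, adjusted p = 9.78e-12, edgeR). Cz05g15290, which had the deepest fall in AZD, held 0.948, 1.93 and 1.65 CPM in GA, against 14.9, 14.9, 14.0 and 18.1 CPM in Glu, a 10.2-fold difference (log2 -3.35 ± 0.19 SE, adjusted p = 1.15e-16, edgeR).

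In the opposite direction, Cz16g11050 had the largest rise among genes of at least 10 CPM in the higher group, with 19.5, 32.0 and 27.6 CPM in GA at 24 h, against 3.62, 2.55, 2.40 and 3.90 CPM in Glu. GA was 8.54-fold higher (log2 3.09 ± 0.23 SE, adjusted p = 5.36e-14, edgeR), although both groups lay far below None, which held 133, 169, 132 and 107 CPM. Cz02g11090 held 9.60, 13.7 and 9.12 CPM in GA, against 3.81, 2.33, 1.96 and 4.05 CPM in Glu (log2 1.85 ± 0.30 SE, adjusted p = 1.82e-06, edgeR).

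Across the 2 times, 23 of the 53 genes were higher in GA at 1 h and lower in GA at 24 h, the pattern by which AZD against S had been searched, where 6.65% of all genes tested showed it. In these 23 genes the log2 fold change had a median of 1.5 at 1 h (range 0.8 to 2.31) and -1.5 at 24 h (range -4.06 to -0.4). Another 14 were higher at 1 h and not called at 24 h (6.2% of all genes tested), with a median of -0.06 at 24 h (range -0.77 to 0.39). These 14 include Cz10g22150, which could not be tested at 24 h, as every GA and Glu library was listed at 0. The other 12 genes called at 1 h were higher in GA at both times, with medians of 1.26 at 1 h and 1.68 at 24 h. Higher here means over Glu, and it does not mean that GA held its level against None. In these 12 genes L of GA against None at 24 h ran from -4.23 in Cz19g05230 to -0.0 in Cz02g11090. Glu against None at 24 h had a median log2 fold change of -4.27 in them (range -6.38 to -1.72), and it shares the Glu libraries with GA against Glu. Of all genes tested 18.7% were higher at both times. These shares over all genes also carry the result at 1 h, where 49 of the 53 genes were higher. Of the 3836 genes of the whole set that were higher at 1 h, 2275 were higher at 24 h, 753 not called and 808 lower. Among the 49, the counts were 12, 14 and 23, so a smaller part of them stayed higher than Glu and a larger part turned lower than Glu.

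The difference of GA over Glu was itself compared between the times, which the change of title prefix accompanies. It was more negative at 24 h than at 1 h in 38 of the 53 genes (71.7%, 37 at least 2-fold), where 29.7% of all genes tested were (20.4% at least 2-fold), and more positive in 4 (36.1% of all genes). The median change was -1.89 on the log2 scale (quartiles -2.89 and -0.72), against 0.14 over all genes. As 49 of the 53 genes were higher in GA at 1 h, a more negative difference need not mean a fall at 24 h. The 38 include Cz02g08250, at log2 -0.08 at 24 h and not called there, and Cz04g32070, still higher in GA at log2 1.59. For the genes chosen without S replicate 1 and fitted without Glu replicate 4, 35 of 53 were more negative and 7 more positive.

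Cz11g24160 showed the most negative change of the 53 (log2 -5.19 ± 0.20 SE, adjusted p = 1.28e-19, edgeR), since at 1 h it held 1370, 1460, 1630 and 1420 CPM in GA, against 713, 829, 644 and 504 CPM in Glu. Cz12g21220 changed by -4.75 ± 0.72 (SE, adjusted p = 7.79e-07, edgeR). It held 23.9, 22.1, 16.6 and 27.9 CPM in GA at 1 h, against 5.74, 5.59, 5.15 and 13.5 CPM in Glu, and 0.0948, 0 and 0.0393 CPM in GA at 24 h, against 0.520, 0.494, 0.323 and 0.393 CPM in Glu. At 24 h its GA libraries held 6 counts in all, which puts GA 9.79-fold lower at that time (exact 95% interval 4.35 to 27.3, counting error only).

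The 4 genes with a more positive difference at 24 h were Cz05g10250 (log2 1.67 ± 0.43 SE, adjusted p = 0.00102, edgeR), Cz02g36290 (log2 1.23 ± 0.40 SE, adjusted p = 0.00847, edgeR), Cz16g11050 (log2 1.11 ± 0.30 SE, adjusted p = 0.00152, edgeR) and Cz05g08090 (log2 2.55 ± 0.82 SE, adjusted p = 0.00747, edgeR), the last of which was picked after its values were seen and stays under 1 CPM in GA and Glu at 24 h. Cz05g10250 held 11.5, 12.1, 13.7 and 15.7 CPM in GA at 1 h, against 6.42, 5.68, 5.20 and 9.80 CPM in Glu, and 1.11, 2.06 and 1.55 CPM in GA at 24 h, against 0.368, 0.112, 0.121 and 0.544 CPM in Glu.

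**Figure D3:**
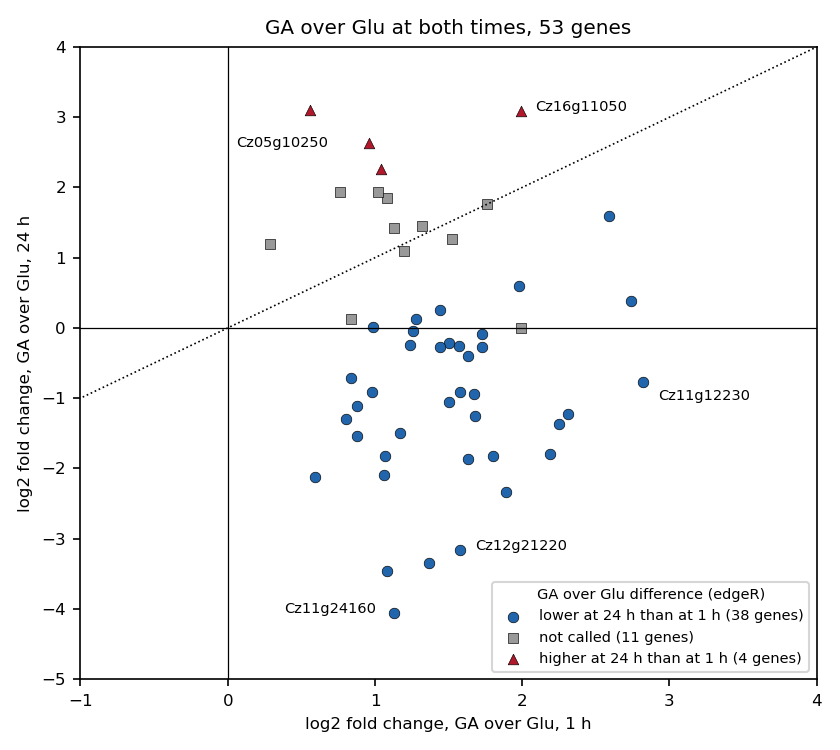
Log2 fold change of GA over Glu at 1 h (x axis) and 24 h (y axis) of the 53 genes; marks show whether the difference changed between the times, and the dotted line marks equal values. All 53 points lie right of 0, 38 are called lower at 24 h than at 1 h, and 4, among them Cz16g11050 and Cz05g10250, are called higher.

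Glu against None asks what glucose alone did to these genes, and neither group took part in the choice. At 1 h most of them were not called. Glu was lower in 13 of the 53 (24.5%), 2 of them at least 2-fold, and higher in 2 (3.77%), where 13.6% of all genes tested were lower (2.5% at least 2-fold) and 17.5% higher. The median log2 fold change was -0.17, against 0.01 over all genes. For the genes chosen without S replicate 1 and fitted without Glu replicate 4, 15 were lower and 0 higher, and with library totals alone 26 of the 53 were lower and 0 higher. Under that scaling the median of all genes moved to -0.45 and 5859 of the 12142 genes tested were called lower, so the count of 26 is near the background.

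The 2 genes higher in Glu at 1 h were Cz05g05090 and Cz03g23100. Cz05g05090 held 47.8, 50.4, 60.6 and 36.8 CPM in Glu, against 28.8, 29.9, 26.1 and 25.4 CPM in None (log2 0.83 ± 0.18 SE, adjusted p = 0.000633, edgeR). Cz03g23100 held 27.4, 19.0, 29.2 and 38.5 CPM in Glu, against 18.2, 17.7, 18.2 and 19.0 CPM in None, so the nearest libraries of the groups were equal after rounding. The call of Cz03g23100 (log2 0.64 ± 0.20 SE, adjusted p = 0.0116, edgeR) was lost without Glu replicate 4 (log2 0.46, adjusted p = 0.0881, edgeR), and with library totals alone both calls were lost (adjusted p = 0.0921 and 0.434, edgeR). Lower in Glu were UNPLg00543, with 8.90, 5.71, 6.39 and 6.76 CPM in Glu, against 14.8, 10.4, 22.6 and 12.5 CPM in None (log2 -1.12 ± 0.25 SE, adjusted p = 0.000886, edgeR), and Cz02g27250, with 72.6, 75.6, 73.4 and 52.6 CPM in Glu, against 127, 117, 168 and 128 CPM in None (log2 -0.98 ± 0.16 SE, adjusted p = 1.87e-05, edgeR). In Cz05g05090, UNPLg00543 and Cz02g27250 the Glu and None libraries did not overlap.

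At 24 h most of the 53 genes were lower with glucose alone. Glu was lower than None in 39 (73.6%), 34 of them at least 2-fold, where 36.0% of all genes tested were lower (22.2% at least 2-fold), and higher in 6 (11.3%), where 32.8% were. The median log2 fold change was -2.0 (quartiles -4.03 and -0.76), against -0.06 over all genes (quartiles -0.90 and 0.59). For the genes chosen without S replicate 1, 42 of 53 were lower and 5 higher. The other 8 genes were not called. GA at 24 h, set against the same None libraries, had L of -1 or less in 36 of the 53 genes (24.4% of genes with a mean of at least 1 CPM) and of 1 or more in 2 (22.8%). As GA against Glu and Glu against None share the Glu libraries, and the comparisons with None share those, their calls were not set against each other, and levels are given side by side.

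Cz06g25130 and Cz05g10250 had the lowest fitted log2 fold changes after Cz10g22150, whose Glu libraries are all listed at 0. The errors do not resolve the order of these genes. Cz06g25130 held 0.130, 0.242, 0.262 and 0.0906 CPM in Glu, against 17.3, 12.5, 19.0 and 17.6 CPM in None (log2 -6.38 ± 0.38 SE, adjusted p = 3.16e-16, edgeR). Glu rests on 48 counts in all, which puts it 84.1-fold lower (95% interval 63.2 to 114, counting error only). Cz05g10250 held 0.368, 0.112, 0.121 and 0.544 CPM in Glu, against 19.1, 22.2, 22.6 and 16.7 CPM in None (log2 -6.31 ± 0.34 SE, adjusted p = 2.11e-17, edgeR), with 53 counts in Glu and a fold of 88.6 (95% interval 67.5 to 119). The abundant Cz19g05230 held 24.1, 18.2, 28.0 and 28.9 CPM in Glu, against 919, 638, 599 and 756 CPM in None. Its GA libraries at 24 h, at 33.0, 38.7 and 39.7 CPM, lay a little above Glu (log2 0.59 ± 0.22 SE, adjusted p = 0.0162, edgeR) and below AZD.

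The 6 genes higher in Glu at 24 h went against the rest. Cz14g08060 held 140, 108, 99.4 and 116 CPM in Glu, against 40.5, 31.4, 25.5 and 25.3 CPM in None (log2 1.92 ± 0.26 SE, adjusted p = 6.92e-08, edgeR). It was also high in GA, at 85.9, 112 and 90.3 CPM, and low in AZD, at 14.7, 17.5, 17.5 and 14.0 CPM. Cz11g24160 held 1510, 1450, 1700 and 1410 CPM in Glu, against 566, 655, 778 and 624 CPM in None (log2 1.21 ± 0.13 SE, adjusted p = 2.96e-10, edgeR), yet only 86.6 to 99.1 CPM in GA.

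**Figure D4:**
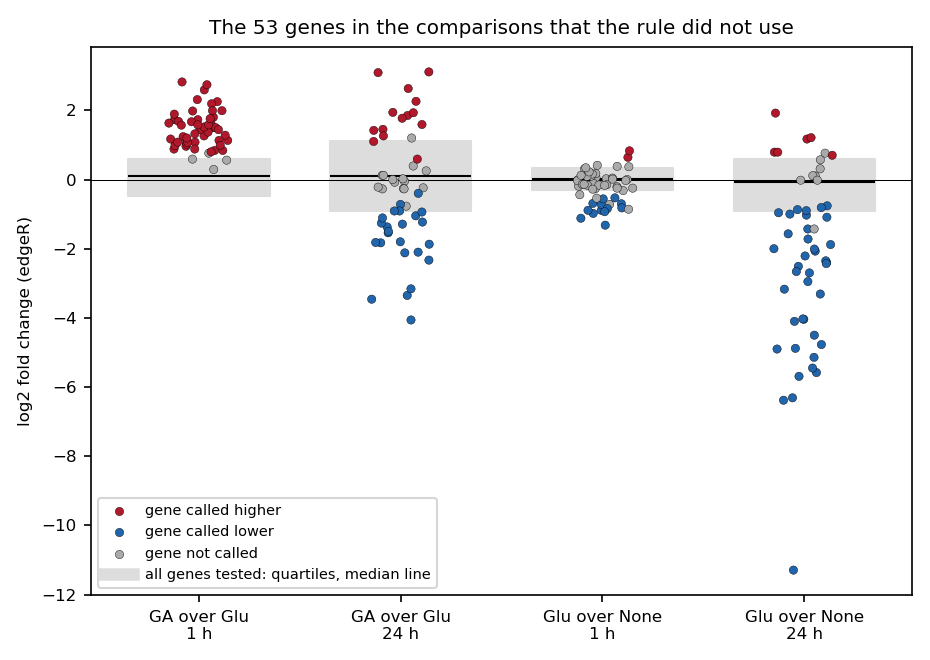
Log2 fold changes of the 53 genes (points, coloured by edgeR call) in GA over Glu and Glu over None at 1 h and 24 h; grey boxes span the quartiles of all genes tested and black lines their medians. The points lie above 0 in GA over Glu at 1 h, on both sides of 0 in GA over Glu at 24 h, near 0 in Glu over None at 1 h and mostly below 0 in Glu over None at 24 h; the lowest point there, Cz10g22150, is listed at 0 in every Glu library, so its fitted value depends on the prior count.

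Cz02g27250 and Cz02g27260 were the only pair of the 53 that stood on consecutive rows of the table. The CPM of Cz02g27260 was 0.492 to 0.764 times that of Cz02g27250 over the 38 libraries, with a median of 0.656. Both were higher in GA than in Glu at 1 h (log2 1.5 ± 0.16 for Cz02g27260 and 1.68 ± 0.17 for Cz02g27250, SE), and both were higher in Glu than in None at 24 h (log2 0.79 ± 0.16 for each). Whether the pair shares reads was not tested, as no genome was used here.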

How the data were processed

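Per the labels' protocols, cells were pelleted and frozen, total RNA was extracted with DNase treatment, poly(A) libraries were sequenced as read pairs and reads were trimmed with BBDUK. Salmon and DESeq2 1.46.0 appear in the submitters' processing notes, with no role named. The sources used here give no genome build, annotation or strand setting. The authors deposited estimated counts per gene, unscaled for depth, and the 38 columns were matched to samples by title. Reads of near-identical or overlapping genes may be divided between IDs.

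The genes were chosen by the rule given above, and the choice and all lists were made with earlier results of these data known. Counts were rounded and tested with edgeR 4.0.16 in R 4.3.3: filterByExpr with defaults (minimum count 10, minimum total 15), which kept 12142 genes, TMM scaling, and 1 quasi-likelihood model with a mean for each of the 10 groups (28 residual degrees of freedom). p-values were adjusted over the 12142 genes by Benjamini-Hochberg. SEs were approximated as the fold change over the root of its F statistic. The fit was tested on simulated data with changes placed in GA at 1 h. Every simulated gene had the same spread and no other group differed, unlike in the real data, so the rates need not hold there. Of 100 genes changed 2-fold it called 93 in GA against Glu at 1 h, and 54 in the difference between the times. All 100 genes changed 4-fold were called in both. A 2-fold change between the times can therefore be missed. None of the 54 replicate pairs agreed within sampling noise (lowest chi-square over its degrees of freedom 7.39). Intervals cover counting error only, since amplified fragments are not independent molecules, and 3 counts per library were taken as the floor.

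Genes named by rule were, in each tested comparison, at most 2 higher and 2 lower with the largest change among called genes with at least 10 CPM in the higher group and, between 2 groups, no overlap; plus the 2 with the highest L at 1 h, the 2 with the lowest L at 24 h (each at least 10 CPM in the higher group), the 2 most abundant and those beside each limit. Other genes are named for comparison and were picked after their values were seen. Alternatives were DESeq2 1.42.0, its size factors, library totals alone, no filter, the groups compared only, a replicate block, each replicate left out, and other forms of the rule.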

Additional observations from a re-analysis of the deposited data

Results flagged for a closer look

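In 152 groups of 4 libraries (the genes named by rule and the summed share of the 53 genes), 13 had a library far from the other 3 by Dixon's criterion, which chance alone meets in about 1 group in 20. Glu replicate 4 at 1 h was the lowest Glu library in Cz11g12230 (82.9 CPM), Cz10g05100 (6.58 CPM), Cz02g27250 (52.6 CPM) and Cz07g28110 (2.02 CPM) and the highest in Cz12g21220 (13.5 CPM). Glu replicate 4 at 24 h was the lowest in UNPLg00543 (13.1 CPM). S replicate 1 at 1 h was lowest in Cz14g08060 (61.5 CPM) and Cz19g05230 (378 CPM), and S replicate 1 at 24 h in Cz05g15290 (117 CPM). Single values stood apart in Cz11g12230 in GA replicate 3 at 1 h (1570 CPM), in Cz02g36290 in AZD replicate 2 at 24 h (1.75 CPM) and, on the low side, in Cz05g05090 in None replicate 1 at 24 h (29.4 CPM). The summed share of the 53 genes was highest in AZD replicate 3 at 24 h (0.117%).

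The GA over Glu difference was more negative at 24 h than at 1 h in 38 of the 53 genes and more positive in 4. Of all genes tested 29.7% were more negative and 36.1% more positive (edgeR, a test of the difference itself, with the title prefix changing with the time). As 49 of the 53 genes were higher in GA at 1 h, a more negative difference need not mean a fall at 24 h. Among the genes named by rule the change was -5.19 in Cz11g24160, -4.75 in Cz12g21220, 1.67 in Cz05g10250 and 1.23 in Cz02g36290 on the log2 scale.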

How the results depend on the processing

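The choice of the 53 genes depends on its settings. Without centring it gave 35 genes (27 of them among the 53), and with a pseudocount of 2 CPM 35 (all among the 53). With None in place of S it gave 72 genes (30 shared), with a pseudocount of 0.5 CPM 72 (53 shared) and with TMM-scaled CPM 50 (49 shared). Leaving out each AZD or S library in turn gave 50 to 74 genes.

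Most of the tested counts moved by at most 1.5-fold. GA over Glu at 1 h ranged from 35 to 50 higher, with 0 lower, over all planned settings, and at 24 h from 13 to 14 higher and 23 to 26 lower. The 35 came with library totals alone, where the calls over all genes shifted too. Under that scaling 1508 of the 12142 genes tested were called higher and 5694 lower at 1 h, against 3836 and 3247 with TMM. Exceptions past 1.5-fold follow. The genes more positive at 24 h than at 1 h numbered 8 with library totals alone, where 5596 of the 12142 genes tested were. They numbered 7 in the setting added after the data were seen, where 4179 genes were, and 4 to 6 with each replicate left out. The genes higher in Glu over None at 1 h numbered 0 with library totals alone and 0 in the added setting. With each replicate left out they numbered 1 to 3 (1 without Glu replicate 4). Those lower there numbered 26 with library totals alone, where 5859 of the 12142 genes tested were called lower. The replicate block gave 49 higher and 0 lower in GA over Glu at 1 h, 14 and 24 at 24 h, 2 and 13 in Glu over None at 1 h and 6 and 39 at 24 h. Deviations from the group mean of same-numbered GA and Glu libraries correlated at -0.03 to 0.21 at 1 h and -0.33 to -0.18 at 24 h. For Glu and None they correlated at -0.32 to 0.09 at 1 h and -0.11 to 0.08 at 24 h. No pairing by number was seen, which does not exclude one. No result reversed its direction.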

Other observations

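Cz10g22150, picked after its values were seen, was listed at 0 in all 7 Glu and GA libraries at 24 h, where a count of 0 allows up to 0.028 to 0.091 CPM by library. None held 12.3, 0, 14.3 and 8.26 CPM at the same time, so 1 None library was also listed at 0, while AZD held 4.03, 3.88, 4.00 and 2.38 CPM and S held 14.5, 9.59, 5.69 and 5.82 CPM. At 1 h its levels were spread widely within groups, from 6.41 to 27.2 CPM in AZD and from 1.82 to 13.0 CPM in None.

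Between the None groups of the 2 times, which also differ in title prefix, 12 of the 53 genes were at least 1 higher and 11 at least 1 lower at 24 h on the log2(CPM + 1) scale (1923 and 1070 of the 12142 genes tested). Cz11g12230 held 21.0 to 31.9 CPM in None at 24 h and 160 to 194 CPM in None at 1 h.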
